A study of Mus musculus with 60 samples.

Results

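At day 3 of neural differentiation, mouse embryonic stem cells without TET1 and cells with a catalytically dead TET1 shared most of their H3K27me3 peaks, while several regulators of the primitive streak had narrower or lower-ranked H3K27me3 in the knockout lines. The comparison used the 4 day 3 H3K27me3 libraries of these genotypes out of 60 libraries in the series, of which 30 were made with the anti-H3K27me3 antibody and 30 with a control IgG. The Tet1 knockout (KO) lines were KO1 and KO15, blastocyst-derived male embryonic stem cell lines of the strain B6129S6F1 Tet1<tm1Koh>. They were set against the catalytic mutant (MUT) lines CM59 and CM69, each 1 clone edited by CRISPR homology-directed repair in a wild-type (WT) line of the same cross. The labels give the same strain name for both genotypes. All 4 cultures started from feeder-depleted stem cells and were grown in N2B27 medium with bFGF from day 0 to day 3, without any signalling inhibitor. The WT lines WT70 and WT72 of the same day are given beside them where their values help. KO and MUT lines also differ in how the lines were made, which cannot be told apart from the genotype.

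H3K27me3 is the trimethylation of lysine 27 on histone H3 that Polycomb repressive complex 2 (PRC2) deposits, mostly over CpG-rich promoters of developmental regulators, where it goes with a silent or poised gene. TET1 oxidises 5-methylcytosine through its catalytic domain, and it also binds other chromatin proteins, PRC2 among them, without that activity. KO cells lack both functions and MUT cells keep the protein but not the oxidation. The study found raised expression of primitive streak genes and raised Wnt signalling in KO cultures of the same day. In MUT cultures it found no detectable protein of the streak marker T and no significant rise in Wnt signalling. The genotypes thus also differed in cell state. Whether a difference in H3K27me3 follows the missing protein or this state was not tested. In the embryo, cells of the epiblast that receive Wnt and Nodal signals pass through the primitive streak to mesoderm and endoderm, whereas those shielded from these signals become anterior neuroectoderm.

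The edit that defines the MUT lines is shown because it is the only designed difference in their TET1 protein. The guide matched GRCm38.p6 without mismatch on the plus strand of chr10:62814460-62814479, inside a coding exon of Tet1, which lies on the minus strand, numbered 9 in the transcript that encodes 2007 residues. In the first line below, the guide's genomic site is in lower case with the adjoining PAM in capitals. The donor oligo and the genome sequence it replaces (chr10:62814427-62814521, plus strand) follow, with the bases at which they differ in capitals.
Guide with PAM: gtgaatgtccttgtgagaatGGG
Donor oligo: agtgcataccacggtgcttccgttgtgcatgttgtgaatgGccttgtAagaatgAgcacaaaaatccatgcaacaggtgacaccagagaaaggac
GRCm38.p6: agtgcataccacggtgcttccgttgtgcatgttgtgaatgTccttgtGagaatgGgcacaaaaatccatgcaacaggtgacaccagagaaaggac
Counted from the donor's 5′ end, with the reference base first, the donor carried T41G, G48A and G55A. Translated in the frame of that transcript, these gave H1620Y and D1622A, a histidine and an aspartate of the iron-binding site, and the remaining base change was silent. The last of the 3 lies in the PAM.

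Both KO lines had more peaks than both MUT lines. KO1 had 1877 peaks and KO15 had 1849, against 1631 in CM59 and 1452 in CM69, and WT70 and WT72 had 969 and 1135. Peaks covered 11.98 Mb in KO1 and 8.51 Mb in KO15, against 10.8 Mb in CM59 and 7.91 Mb in CM69. The median peak was 4848 bp in KO1 and 3676 bp in KO15, against 5084 bp in CM59 and 4306.5 bp in CM69. Peak number did not overlap between genotypes, whereas covered bases and median width varied as much between lines of 1 genotype as between genotypes. With 2 lines against 2, an exact two-sided permutation test cannot give a p below 0.333, which peak number reached, so no difference below could pass a threshold and all are given as values and counts. The lines are the replicates and nothing in the files gives sequencing depth. Over covered bases, the Jaccard index (shared bases over all bases covered by either library) was 0.628 between the KO lines and 0.650 between the MUT lines, while the 4 KO to MUT pairs ranged from 0.569 to 0.681. The within-genotype values lay inside the range of the between-genotype values.

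**Figure D1:**
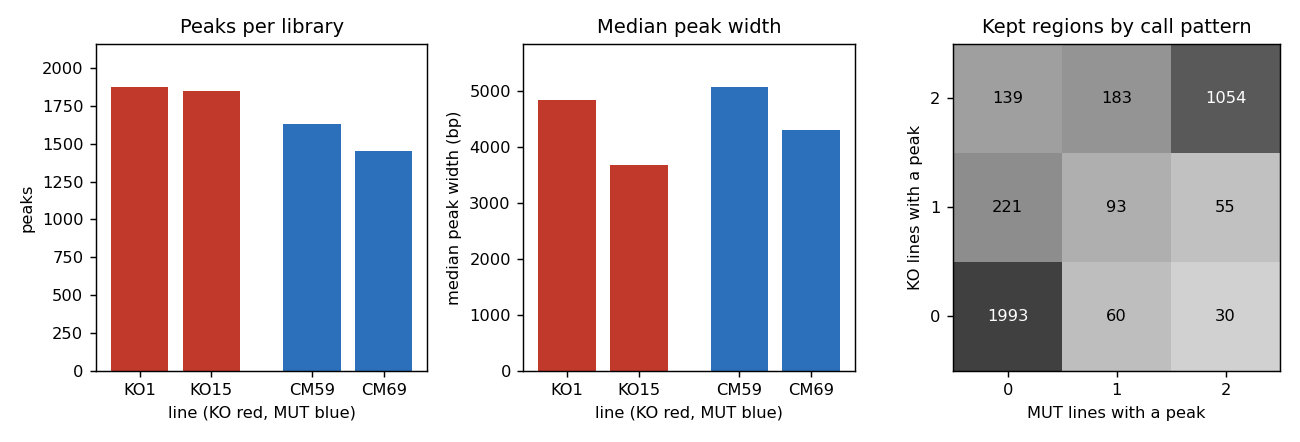
Number of peaks and median peak width (bp) in each day 3 library (KO1 and KO15 in red, CM59 and CM69 in blue), and the number of kept regions by how many KO and MUT lines had a peak there. Both KO lines had more peaks than both MUT lines, and 1054 regions were called in all 4 libraries against 139 in both KO lines alone and 30 in both MUT lines alone.

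To compare peak presence, the peaks of all 30 H3K27me3 libraries were merged into 4512 regions, of which the 3828 called in at least 2 libraries were kept. Of these, 1554 had a peak in at least 2 of the 4 libraries and 1054, or 67.8%, in all 4. A peak was present in both KO lines and neither MUT line at 139 regions, or 8.94% of the 1554, and in both MUT lines and neither KO line at 30, or 1.93%. Within a genotype, 369 of the 1745 regions called in either KO line and 336 of the 1475 called in either MUT line had a peak in 1 line only, a count of another kind, since it asks only that 2 libraries differ. The larger number of KO-alone regions was not seen when peak number was made equal. When the 1452 peaks of highest total signal were used in each library, 52 regions were KO alone and 57 were MUT alone, of which 34 and 26 belonged to the 139 and the 30. The regions called in 1 genotype alone were also weak: ranked by total signal among all peaks of its library, from 0 to 100, their mean percentile had a median of 19.6 in KO lines and 29.5 in MUT lines, against 61.3 for regions called in all 4. A region without a peak is one that did not pass the caller's threshold, and since the depth is unknown it is called without a peak, not without the mark.

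The highest-ranked KO-alone promoter regions were those of Map6, Trnp1 and Hrh3. A promoter (1.5 kb to either side of a protein-coding start site) lay at 115 of the 139 regions (82.7%), near the 78.3% of all kept regions and the 87.5% of regions called in all 4, and 117 genes, or 8.11% of the 1443 called in at least 2 of the 4 libraries, had a called promoter in both KO lines and neither MUT line. With the same number of peaks per library there were 48 such genes, against 42 called in MUT lines alone. Map6, whose product stabilises neuronal microtubules, ranked highest, with 4742 bp covered in KO1 and 4975 bp in KO15 at percentiles 78.2 and 76.7, against no peak in CM59 or CM69. Trnp1, a nuclear protein of cortical progenitors, had 5491 bp in KO1 and 4860 bp in KO15, at percentiles 55.7 and 59.1. Hrh3, the histamine H3 receptor of neurons, had 4399 bp and 4313 bp at percentiles 52.7 and 52.5. These 3 peaks lay over the gene's 5′ end in both KO lines and were not called in either MUT line or in WT70 or WT72.

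The next of the 12 highest KO-alone promoter regions, at percentiles between 31.4 and 61.5 in the 2 lines, were those of Shank1 (a postsynaptic scaffold) with its neighbour Clec11a, Lingo3, Phf19 (a PRC2-associated Polycomb-like protein), Rims4 (of the presynaptic active zone), Fbxl16, Fabp3 with Gm10570, Tmem151a, Ccdc88b with Rps6ka4, and Cabp1 (a neuronal calcium-binding protein). All 12 stayed KO alone with the same number of peaks per library, which their choice by high total signal fixed in advance. When the lowest 25% of each library's peaks by height were left out, only Map6, Hrh3 and Shank1 stayed KO alone. From the gene lists, 17 synaptic, cytoskeletal and neuropeptide genes had a promoter called in at least 2 of the 4 libraries, the same base as for the 8.11%, and 4 of these were KO alone, namely Brsk2, Kif17, Nrxn2 and Shank1, and 1, Nefl, was MUT alone. Brsk2, a kinase of axon specification, and Kif17, a dendritic kinesin, are among the genes named in the study. Brsk2 had 5325 bp covered in KO1 and 2724 bp in KO15 at percentiles 39.0 and 1.19, and Kif17 had 14938 bp and 2866 bp at percentiles 64.9 and 17.8. Both were in the lowest 25% of peaks in KO15, and neither remained KO alone with the same number of peaks per library. Kcnn1, a calcium-activated potassium channel, was KO alone, and of 16 axon guidance genes on that base Epha8 and Epha10 were. Further KO-alone genes of the lists were Phox2a, Ebf1, Bmp8a, Id4 and Phf19, and at Epha10 and Ebf1 the call held for the start site only, since their regions had peaks in all 4 libraries. At Sox2, a neural and pluripotency factor, the region was covered over 2291 bp and 2231 bp in KO lines and had no peak in MUT lines, although no peak reached its promoter window. Tubb3 and Npas4, also named in the study, had a peak in KO1 alone.

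The MUT-alone promoters numbered 21 genes, or 1.46% of the 1443. By list, and among genes called in at least 2 of the 4 libraries, 2 of 25 Wnt pathway genes were MUT alone and 0 KO alone, 2 of 16 primitive streak regulators were MUT alone and 0 KO alone, and of 22 Nodal, BMP and TGF-beta pathway genes 2 were MUT alone (Chrd and Smad7) and 2 KO alone (Bmp8a and Id4). Wnt3, the ligand required for primitive streak formation, ranked highest: it had no peak in KO1 or KO15, against 7973 bp in CM59 and 8346 bp in CM69 at percentiles 72.5 and 80.5, and 7997 bp and 8455 bp in WT70 and WT72. KO1 had a separate peak of 8932 bp farther upstream, which ended at -19.4 kb from the start site. Fzd10, a Wnt receptor, had no peak in either KO line, against 8291 bp in CM59 and 2379 bp in CM69, with 3288 bp and 3306 bp in the WT lines. Pmepa1, a TGF-beta-induced inhibitor of SMAD signalling, had none in KO lines, against 5404 bp and 4264 bp in MUT lines at percentiles 47.8 and 53.0. Smad7, the inhibitory SMAD, had none in KO lines, against 3816 bp and 6340 bp in MUT lines at percentiles 32.1 and 63.6. Chrd, the BMP antagonist chordin, shared its region with Thpo and had none in KO lines, against 4729 bp and 3806 bp in MUT lines. Mixl1, a homeobox gene of the streak, had none in KO lines, against 2393 bp and 2352 bp in MUT lines at the low percentiles of 3.86 and 10.3, and it was not MUT alone with the same number of peaks per library. The other regions among the 12 highest were those of Olig1, Chst15, Cdk6, Nefl, Ism2, Gse1 and Usp3. All 12 stayed MUT alone with the same number of peaks per library, which their choice by high total signal again fixed in advance. Without the lowest 25% by height, Wnt3, Pmepa1, Fzd10, Olig1, Smad7, Nefl and Gse1 stayed MUT alone. From the lists, Meis2 and Foxa1 were MUT alone too, Foxa1 only for its start site, since its region of chr12:57529377-57558263 had peaks in all 4 libraries.

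**Figure D2:**
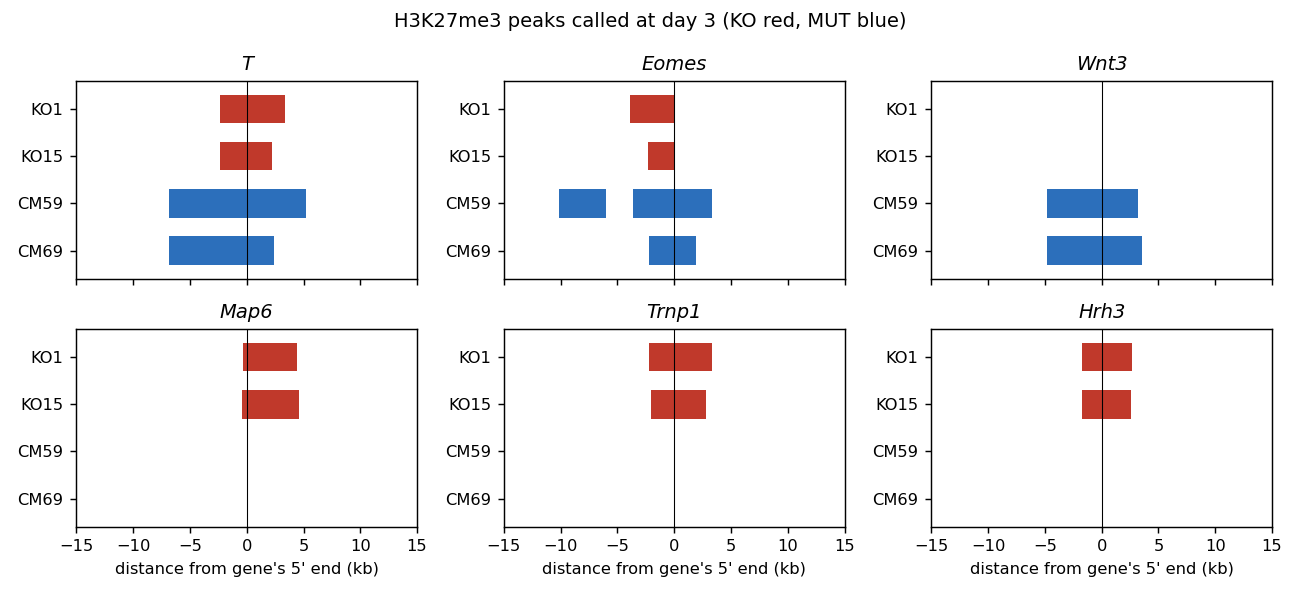
Peaks called in each day 3 library (rows, KO1 and KO15 in red above CM59 and CM69 in blue) by distance from the annotated 5′ end of 6 genes, in kb in the direction of transcription. The T peak began at -6.84 kb in both MUT lines and at -2.38 kb in both KO lines, Wnt3 had a peak at its 5′ end in MUT lines alone, and Map6, Trnp1 and Hrh3 in KO lines alone.

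At the 1054 regions called in all 4 libraries, width and rank of the signal differed about as often in each direction. Covered width was larger in both KO than in both MUT lines at 132 regions (12.5%) and larger in both MUT lines at 130 (12.3%), with a median log2 ratio of 0.01. For rank, the total signal of each region was placed between 0 and 100 among the 1054 regions of its library, which removes the overall scale of each library but makes higher ranks in some regions come with lower ranks in others. It was higher in both KO lines at 243 regions (23.1%) and in both MUT lines at 230 (21.8%). The difference of genotype means had a median size of 5.15 percentile points, much as the 2 lines of a genotype differed from each other, by 5.22 points between KO1 and KO15 and by 4.46 between CM59 and CM69. Differences of at least 20 points with no overlap of the lines were found at 40 regions (3.8%) in favour of KO and at 44 (4.17%) in favour of MUT. Mean widths at least 1.5 times apart without overlap were found at 27 regions (2.56%) with the wider peak in KO and at 33 (3.13%) with the wider peak in MUT. Both measures were lower in both KO lines at 77 regions (7.31%) and higher in both at 82 (7.78%). A lower rank or a narrower peak in a whole culture may mean fewer cells with the mark or less of it in each cell, which cannot be told apart.

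Most regulators of the primitive streak with a shared region ranked lower in KO lines. Of the 24 genes of the list, 12 had a region called in all 4 libraries, and 9 of these 12 ranked lower in both KO than in both MUT lines, against 21.8% of all shared regions, while 0 ranked higher. The median rank difference, KO minus MUT, was -12.998 points for the list and 0.05 for all shared regions. Covered width was smaller in both KO lines at 5 of the 12, against 12.3% of all shared regions, and larger at 0, with a median log2 ratio of -0.31. With rank by peak height the count was 7 of 12, with signal per covered base 8 of 12, and with the same number of peaks per library 8 of the 11 regions left. Leaving out each line in turn gave 9 to 10 of 12, with 0 to 2 ranked higher. Fewer lines then have to match, so the count of lower regions could hardly fall below 9. A further 2 genes of the list, Wnt3 and Mixl1, had a promoter called in MUT lines alone, and 0 in KO lines alone. By region, Cdx4 had a peak in both KO lines and CM59, and Fgf4 in KO1 alone. Fgf8 had a peak in KO15 and both MUT lines, and Nodal in CM69 alone.

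T, or Brachyury, the T-box factor that marks the streak and nascent mesoderm, showed this most plainly. Its region at chr17:8423875-8443161 was covered over 5775 bp in KO1 and 4650 bp in KO15, against 12057 bp in CM59 and 9267 bp in CM69, and 12939 bp and 12577 bp in WT70 and WT72. The MUT mean was 2.05 times the KO mean, no KO value reached the MUT range, and both WT lines were wider still. Its rank among shared regions was 18.8 in KO1 and 43.5 in KO15, against 80.8 in CM59 and 83.5 in CM69. Nkx1-2, a homeobox gene of the caudal epiblast, was covered over 3428 bp and 3279 bp in KO lines, against 8931 bp and 6065 bp in MUT lines, at ranks of 8.73 and 16.6 against 64.0 and 61.7. Here the WT lines, with 4426 bp and 6132 bp, lay between the genotypes or within the MUT range. Eomes, the T-box factor of early mesoderm and definitive endoderm, was covered over 4006 bp in KO1 and 2328 bp in KO15, against 11120 bp in CM59 and 4084 bp in CM69. The widths at Eomes barely separated, as CM69 exceeded KO1 by less than 100 bp, and the wide value of CM59 included a separate upstream peak, without which the log2 width ratio was -0.81 in place of -1.26. WT70 had 3764 bp, inside the KO range, and WT72 had 6890 bp. Its ranks, 9.77 and 4.27 in KO lines against 67.9 and 36.7 in MUT lines, did not overlap.

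Smaller differences in the same direction were found at most of the other streak genes with a shared region. Mesp1, a regulator of cardiac and cranial mesoderm, ranked at 34.7 and 21.3 in KO lines, against 49.3 and 47.2 in MUT lines. The region of Cdx1, a caudal-type homeobox gene, ranked at 48.5 and 61.0, against 73.0 and 74.95, and that of Sp5, a Wnt target, at 63.4 and 65.5, against 79.2 and 79.4. Gsc (goosecoid), Foxa2 (endoderm and node) and Evx1 (posterior streak) differed by -11.1, -10.7 and -10.2 points, with no overlap of the lines. Cdx2, Wnt3a and Lhx1 did not separate: the difference was 0.76 points at Cdx2, 0.71 at Wnt3a and -0.38 at Lhx1. The Cdx1 region also held Pdgfrb, a fibroblast marker. All 3 shared regions of the 18 feeder fibroblast markers, at Pdgfrb, Prrx1 and Twist2, ranked lower in both KO lines, at -19.2, -7.87 and -6.31 points, while 11.1% of these marker promoters were called in each library and those of Col1a1, Col1a2 and Dcn in none. Their part in the result was not tested.

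**Figure D3:**
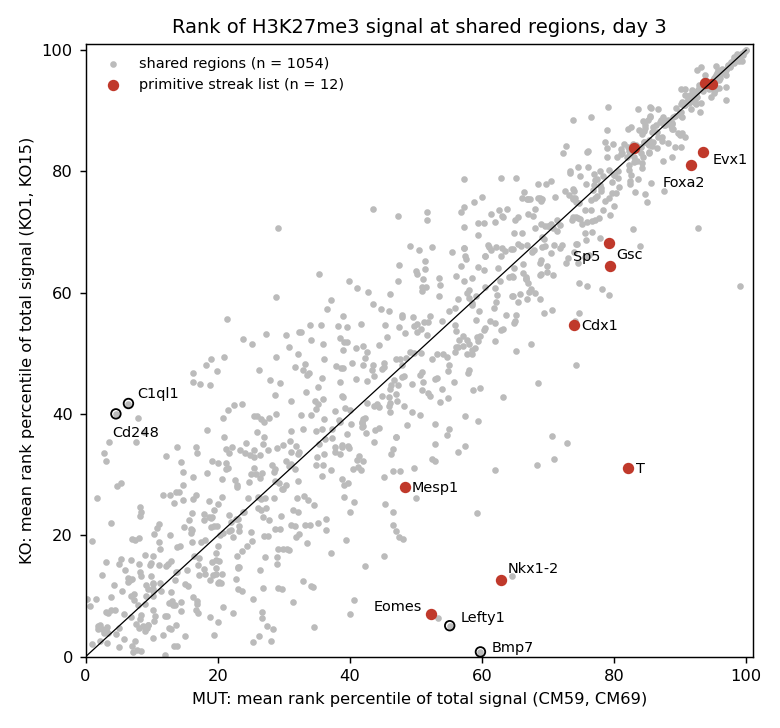
Mean rank percentile of total signal at the 1054 shared regions in KO lines (vertical) against MUT lines (horizontal), with the 12 regions of the primitive streak list in red and 4 other named genes circled. Most regions lie about the line of equality, whereas 9 of the 12 streak regions lie below it with no overlap of the lines.

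Several ligands and antagonists of the Nodal and BMP pathways also ranked lower in KO lines. Of 15 shared regions of this list, 8 ranked lower in both KO lines, against 21.8% of all shared regions, and 1, Bmp8b, ranked higher, with a median difference of -6.50 points. By height, 7 were lower and 3 higher, with a median of -3.18 points. By signal per covered base, 6 were lower and 2 higher. With the same number of peaks per library, 7 of the 12 regions left were lower and 0 higher. Leaving out each line in turn, with fewer lines to match, gave 8 to 9 lower and 2 to 5 higher. Bmp7 had the lowest KO minus MUT difference of any shared promoter region without overlap, -59.0 points, with ranks of 0.95 in KO1 and 0.66 in KO15, against 58.8 in CM59 and 60.7 in CM69. It was covered over 2776 bp and 2198 bp in KO lines, against 7691 bp and 6983 bp in MUT lines, while WT70 had no peak and WT72 had 9674 bp. Ranked by signal per covered base, the difference was smaller at Bmp7, at -18.8 points, as at Nkx1-2, at -18.5 in place of -50.2, while at T it was -55.1 and at Lefty1 -61.2. Lefty1, the Nodal antagonist that Nodal itself induces, ranked at 1.14 and 9.11 in KO lines, against 45.4 and 64.8 in MUT lines. Its width differed less, at 4149 bp and 3126 bp against 4547 bp and 5502 bp. The difference was -17.9 points at Bmp2, and between -8.16 points at Grem1 and -3.27 at Gdf6 for Grem1, Bmp6, Bmp4, Nog and Gdf6. The pathway's promoters were called about equally often, at 47.6% and 45.2% in KO lines against 50.0% and 47.6% in MUT lines. With the same number of peaks per library the difference in calls, KO minus MUT, was -10.7 points. Outside these lists, the difference was -51.3 points at Mkx, a homeobox gene of tendon, and -47.0 points at Pcdh7, a protocadherin. By signal per covered base they were -13.6 and -37.3 points. Klf4, a pluripotency factor, was covered over 2119 bp and 2519 bp in KO lines, against 7573 bp and 2665 bp in MUT lines. The smaller mean width at Gm21887 on chromosome X rested on KO15 alone, with 18989 bp in KO1 and 1590 bp in KO15, against 20068 bp and 22240 bp in MUT lines.

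The regions that ranked higher in KO lines came from several lists or from none. Cd248, a stromal surface protein, ranked at 39.6 and 40.5 in KO lines, against 8.35 and 0.85 in MUT lines. C1ql1, a synapse-organising protein of the complement family, ranked at 52.3 and 31.2, against 6.64 and 6.36, and Lfng, a glycosyltransferase that modifies Notch, at 58.9 and 52.3, against 2.94 and 39.9. The region shared by Coasy and Hsd17b1 was higher by 30.7 points, although by height and by signal per covered base its lines overlapped. Epha10, an Eph receptor, was higher by 30.3 points, with 12018 bp and 7355 bp covered in KO lines against 6869 bp and 5866 bp in MUT lines. Creb5, a CREB-family transcription factor, was covered over 5721 bp and 6139 bp in KO lines, against 2344 bp and 3467 bp in MUT lines, and was higher by 31.7 points in total signal. Its height and its signal per covered base went the other way, by -0.24 and -17.6 points. Grid2ip, the region of Cfap61 and Insm1, the gamma-protocadherin cluster and the region of Adamtsl5 and Plk5 were, like Creb5, among the promoter regions with the highest width ratios, KO over MUT, at 1.73 to 2.04 times.

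**Figure D4:**
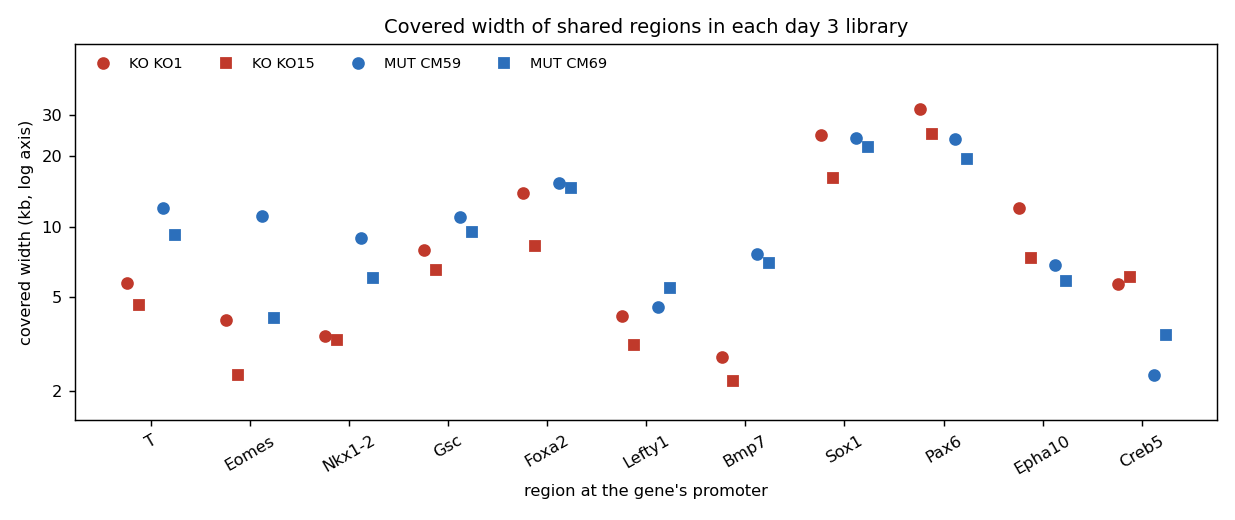
Covered width (kb, log axis) of 11 regions called in all 4 day 3 libraries, 1 point per library (KO1 and KO15 in red, CM59 and CM69 in blue). KO values lie below MUT values from T to Bmp7 and above them at Pax6, Epha10 and Creb5, while the lines overlap at Sox1.

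Few regulators of the neural fate separated by total signal. Of the 20 shared regions of the neuroectoderm and forebrain list, 2 ranked higher and 1 lower in both KO lines, with a median of -0.14 points. These counts depended on the measure and the lines: ranked by signal per covered base, 7 were lower and 0 higher in KO lines, by height 5 were lower and 3 higher, and leaving out 1 line at a time gave 2 to 9 lower, the 9 without KO1. Sox1, the earliest neural plate SOX gene, ranked at 96.1 and 93.9 in KO lines, against 95.7 and 96.0 in MUT lines, and was covered over 24522 bp and 16182 bp against 23901 bp and 21788 bp. Pax6 was the exception by width, with 31597 bp and 24762 bp in KO lines against 23591 bp and 19500 bp in MUT lines, at ranks of 97.6 and 97.0 against 95.4 and 95.3. Ranks at Lhx5, Wnt1 and En1 differed by at most 0.47 points. Rank is compressed at the top of the scale, where these regions lie. The promoters of all 39 Hox genes were called in each library and those of the 25 housekeeping genes in none. In promoter calls, the lists with the largest differences were the genes named in the study, at 56.8% and 48.6% in KO lines against 43.2% in both MUT lines, ion channel genes, at 55.0% and 52.5% in KO lines against 52.5% and 37.5% in MUT lines, synaptic, cytoskeletal and neuropeptide genes, at 38.0% and 32.0% against 28% and 24%, and primitive streak regulators, at 58.3% in both KO lines against 66.7% in both MUT lines. Over all protein-coding genes, 1547 and 1345 promoters were called in KO lines, against 1352 and 1099 in MUT lines. The KO mean was 1.18 times the MUT mean, so a higher share in KO lines is not particular to these lists. With the same number of peaks per library, the differences, KO minus MUT, were 2.7 points for the genes named in the study, 5.0 for ion channel genes, 2.0 for the synaptic list and -10.4 points for the streak list.

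The loci that separated KO from MUT at day 3 were followed through the other stages of the series, with day 0 and day 2 measured in partly different lines. For KO25, 1 of these, the description in the labels names WT70 while the title and genotype name KO25, which was followed. At day 2, Wnt3 was covered over 12103 bp in KO15 and 14365 bp in KO25, against 18631 bp in CM40 and 11929 bp in CM59, and both KO lines had a peak. At day 5 it had 5279 bp in KO1 and 6887 bp in KO15, against 6891 bp in CM59 and none in CM69. T was covered over 17640 bp and 17664 bp in KO lines at day 2, against 19275 bp and 13216 bp in MUT lines. At day 5 it had 4636 bp and 4850 bp in KO lines, against 8131 bp and 4854 bp in MUT lines and 9318 bp and 10557 bp in WT lines. In day 5 cultures that had received the Wnt inhibitor XAV939 it had 13402 bp and 12835 bp in KO lines, against 10903 bp and 12240 bp in MUT lines. KO widths at T lay below both MUT widths at day 3 and, by 4 bp from CM69, at day 5, but not at day 2 or with the inhibitor. Eomes was narrower in both KO lines at day 0 as well, with 5669 bp and 4401 bp against 9908 bp and 13241 bp in MUT lines, and at day 5, with 3660 bp and 5758 bp against 9413 bp and 8662 bp. At day 2 the lines overlapped at Eomes. KO lines had 8498 bp and 15318 bp, against 24011 bp and 6001 bp in MUT lines. At Nkx1-2 the order at day 5 was the opposite of that at day 3. KO lines had 9048 bp and 7431 bp, against 4383 bp and 3294 bp in MUT lines.

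**Figure D5:**
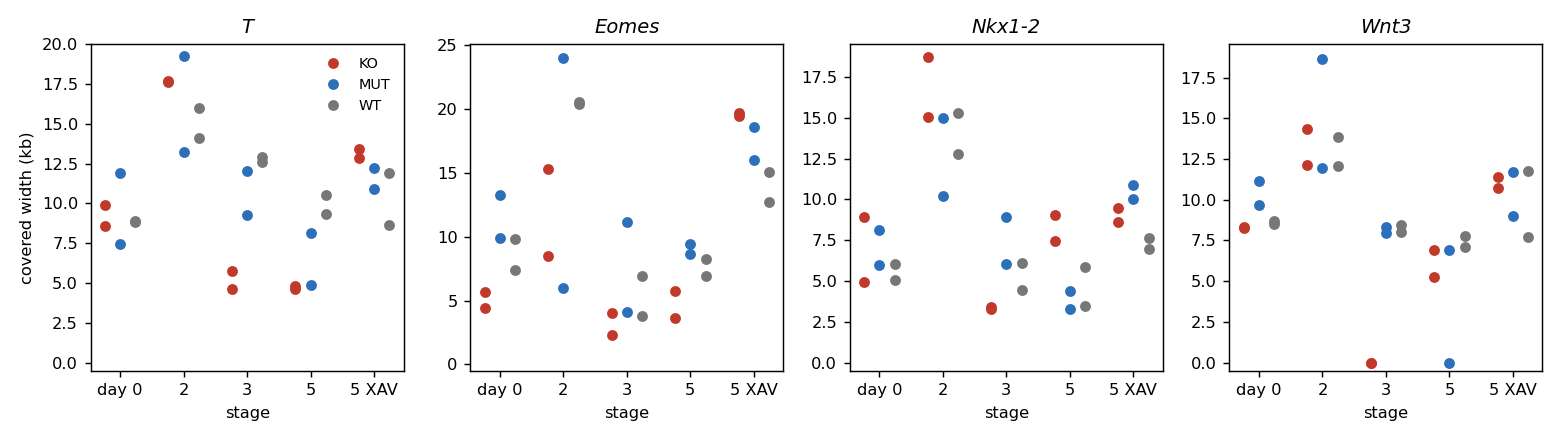
Covered width (kb) at T, Eomes, Nkx1-2 and Wnt3 by stage (day 0, 2, 3, 5 and day 5 with XAV939), 1 point per library of KO, MUT and WT, 2 a group. At day 3 both KO points lie below both MUT points in all 4 panels, with Wnt3 at 0 in KO, and at day 5 with XAV939 they lie above both MUT points at T and Eomes.

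The 2 sets of region were followed in the other libraries, beside the share of all kept regions that each library called. Of the 139 KO-alone regions, 4 had a peak in either WT line at day 3, or 2.88%, against 26.9% of all kept regions. Of the 30 MUT-alone regions, 17 did, or 56.7%, and of the regions called in all 4 libraries 85.9% did. Among all kept regions, 1993 had no peak in any of the 4 libraries. The 26.9% is therefore a low base for sets chosen by day 3 calls. KO-alone regions were weak, at a median percentile of 19.6, and the WT libraries had the fewest day 3 peaks, 969 and 1135. The part of this in the 2.88% was not tested. At day 5, KO-alone regions were called at 77.0% in KO1 and 85.6% in KO15, against 86.3% in CM59 and 21.6% in CM69, with WT70 at 18.0% and WT72 at 25.9%. MUT-alone regions were called there at 40.0% and 50.0% in KO lines, against 66.7% and 13.3% in MUT lines, with WT lines at 30.0% and 40.0%. All kept regions were called at 50.1% and 62.6% in KO lines, against 65.1% and 27.4% in MUT lines, with WT lines at 27.5% and 31.1%. KO-alone regions were thus above the library's own share in KO1, KO15 and CM59 and below it in CM69, which had 1191 peaks at day 5, the fewest of these libraries, and in both WT lines. At day 2, KO-alone regions were called at 20.9% in KO15 and 62.6% in KO25, against 46.8% in CM40 and 23.0% in CM59, with WT lines at 59.7% and 34.5%. MUT-alone regions were called there at 60.0% and 86.7% in KO lines, against 96.7% and 76.7% in MUT lines, with both WT lines at 96.7%. The shares of all kept regions were 33.0% and 51.6% in KO lines, against 50.8% and 36.3% in MUT lines, with WT lines at 54.7% and 46.2%, and those of regions called in all 4 day 3 libraries ranged from 87.1% to 98.8%. MUT-alone regions were thus above the share of kept regions in all 6 day 2 libraries. Brsk2 had a peak in all 6 libraries of day 0, and Kif17 in CM40 alone. Both had no peak in any day 2 library and a peak in both KO and both MUT lines at day 5, but in neither WT line. Kif17 was covered over 16670 bp and 16529 bp in KO lines, against 16535 bp and 7790 bp in MUT lines.

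The 4 region lists deposited with the series hold regions that the study called changed between KO and WT, so their KO values took part in the choice and are a description. Of the 1443 regions of the list named gain-gain, 43.5% in KO1 and 36.6% in KO15 had a peak, against 31.7% in CM59 and 23.5% in CM69, and 13.7% and 18.99% in WT lines. Both MUT lines lay between KO and WT, an order that the shares of all kept regions also had. Those were 43.5% in KO1 and 38.0% in KO15, against 37.7% in CM59 and 30.5% in CM69. In WT70 and WT72 they were 20.4% and 26.5%. With the same number of peaks per library the difference for gain-gain, KO minus MUT, was 4.61 points in place of 12.4. For the 792 regions of the list named loss-loss, the shares were 43.1% and 38.9% in KO lines, against 47.0% and 40.9% in MUT lines. The gain-gain list held 66.2% of the KO-alone regions and 37.3% of all kept regions, and the loss-loss list held 70.0% of the MUT-alone and 20.5% of all kept regions.

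The promoters of 6 of the genes described, 4 of them on the primitive streak list, are shown with each CG in capitals, since PRC2 in mammals is found mostly at CpG-rich sequence. Each is the 250 bases before the RefSeq start site in GRCm38.p6, on the gene's strand. T, Eomes and Nkx1-2 ranked lower in both KO lines, Wnt3 had a peak in MUT lines alone, and Trnp1 and Hrh3 had a peak in KO lines alone.
T, chr17:8434173-8434422, plus strand: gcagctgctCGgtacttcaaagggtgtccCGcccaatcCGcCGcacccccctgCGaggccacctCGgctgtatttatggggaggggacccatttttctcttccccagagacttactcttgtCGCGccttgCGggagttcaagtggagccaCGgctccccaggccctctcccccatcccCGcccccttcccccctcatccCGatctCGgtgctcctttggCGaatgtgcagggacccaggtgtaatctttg
Eomes, chr9:118477939-118478188, plus strand: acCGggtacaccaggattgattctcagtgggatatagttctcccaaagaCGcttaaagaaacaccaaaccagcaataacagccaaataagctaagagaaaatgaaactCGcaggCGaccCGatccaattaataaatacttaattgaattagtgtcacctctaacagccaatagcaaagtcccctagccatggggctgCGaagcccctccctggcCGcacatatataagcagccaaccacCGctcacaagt
Nkx1-2, chr7:132599638-132599887, minus strand: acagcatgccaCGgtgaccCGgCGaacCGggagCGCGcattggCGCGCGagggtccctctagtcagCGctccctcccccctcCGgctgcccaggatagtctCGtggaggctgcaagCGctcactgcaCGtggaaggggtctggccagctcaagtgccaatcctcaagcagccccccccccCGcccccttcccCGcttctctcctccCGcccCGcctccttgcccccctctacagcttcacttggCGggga
Wnt3, chr11:103773925-103774174, plus strand: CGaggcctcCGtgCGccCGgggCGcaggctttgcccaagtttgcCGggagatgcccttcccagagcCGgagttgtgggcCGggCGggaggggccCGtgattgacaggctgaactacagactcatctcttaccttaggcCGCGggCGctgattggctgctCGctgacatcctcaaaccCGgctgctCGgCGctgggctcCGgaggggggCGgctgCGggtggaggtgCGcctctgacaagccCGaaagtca
Trnp1, chr4:133498551-133498800, minus strand: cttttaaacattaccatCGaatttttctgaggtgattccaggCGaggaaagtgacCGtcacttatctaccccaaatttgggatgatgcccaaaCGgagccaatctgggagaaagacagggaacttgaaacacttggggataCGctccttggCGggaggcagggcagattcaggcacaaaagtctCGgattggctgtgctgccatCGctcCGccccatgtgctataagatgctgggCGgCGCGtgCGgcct
Hrh3, chr2:180104408-180104657, minus strand: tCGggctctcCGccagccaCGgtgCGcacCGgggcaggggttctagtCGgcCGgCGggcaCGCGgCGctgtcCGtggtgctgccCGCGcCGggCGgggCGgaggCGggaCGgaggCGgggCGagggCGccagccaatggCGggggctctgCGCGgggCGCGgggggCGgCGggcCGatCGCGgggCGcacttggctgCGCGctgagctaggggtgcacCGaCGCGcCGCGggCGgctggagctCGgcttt
They held 14 CG at T, 8 at Eomes, 19 at Nkx1-2, 22 at Wnt3, 13 at Trnp1 and 42 at Hrh3, against a median of 6 in the 32851 promoters of the RefSeq table. KO-alone genes had a median of 14 CG (92 of 117 matched by symbol) and MUT-alone genes 21.5 (16 of 21 matched). Over whole regions, the median GC content was 52.9% for KO-alone (138 of 139 regions with a sequence), 50.2% for MUT-alone and 50.7% for regions called in all 4, and the ratio of observed to expected CpG was 0.360, 0.358 and 0.380.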

How the data were processed

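CUT&RUN was performed on the KO and MUT lines at day 3. Reads were trimmed with Trim Galore, aligned with Bowtie in local mode to GRCm38.p6 (mm10) and deduplicated with Picard by the authors, who called peaks in each library against its IgG library with SEACR in stringent mode. The deposited peak files hold positions, total signal (coverage summed over the peak) and maximum signal (height). Neither signal is scaled for depth as far as stated, and read depth is unknown, so signal was compared as rank within a library.

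Here, peaks of the 30 libraries were merged into regions, and the minimum overlap was set to 1 bp. Peaks outside chromosomes 1-19, X and Y were not left out (19 peaks of the 4 libraries). The KO-alone regions thus included a short one outside these chromosomes, covered over 247 bp in KO1 and 175 bp in KO15. Start sites came from GENCODE M21. Python 3.11.15, numpy 2.4.6 and pysam 0.24.0 were used, and the pattern counts were tested on simulated data. Named were the 12 highest-ranked promoter regions of 1 genotype alone, the 6 most different shared promoter regions each way in rank and in width, list genes of 1 genotype alone, and genes named in the study. The rule also took 1 region that is not reported here. Members and lists were chosen with earlier results of these data known. Alternatives covered overlap, window, gap, peak number, height, measures and left-out lines.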

Additional observations from a re-analysis of the deposited data

Results flagged for a closer look

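Of 42 named regions checked, 3 had KO and MUT lines separated in opposite directions at day 3 and day 5. The difference between the days was not tested, and CM69 had the fewest peaks of the KO and MUT libraries at day 5, 1191. At Nkx1-2, a homeobox gene of the caudal epiblast, mean covered width, KO minus MUT, was -4144.5 bp at day 3 and 4401 bp at day 5. At Fzd10, a Wnt receptor, it was -5335 bp at day 3 and 5242.5 bp at day 5. At Nefl, the neurofilament light chain, it was -4236 bp at day 3 and 590.5 bp at day 5. The day 5 widths at Nefl barely separated. KO1 had 4689 bp and KO15 3577 bp, against 3533 bp in CM59 and 3552 bp in CM69.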

How the results depend on the processing

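With the same number of peaks per library, KO-alone and MUT-alone regions numbered 52 and 57, promoters 48 and 42, and 3 gene lists in place of 8 had a higher mean promoter share in KO lines. The KO minus MUT share of the deposited lists became -6.69 points for loss-loss, -1.20 for loss-gain, 4.61 for gain-gain and 0.26 for gain d5X. Requiring means 1.2 times apart left 73 shared regions wider in KO, and requiring 10 points left 130 ranked higher in KO and 111 in MUT. Leaving out each line in turn gave 152 to 318 KO-alone and 39 to 81 MUT-alone regions, 128 to 273 and 29 to 65 promoters, 170 to 557 shared regions wider in KO and 170 to 536 in MUT, 346 to 461 ranked higher in KO and 373 to 417 in MUT, and 5 to 9 lists with a higher share in KO. The highest KO-alone counts of regions and promoters came without KO15, and the highest MUT-alone counts came without CM69. With 1 line left, fewer lines have to match, which raises these counts by construction. The rank difference at Creb5 turned negative by height (-0.24 points) and by signal per covered base (-17.6 points). For single named regions, 88 of 88 values with a line left out kept the direction. This follows largely from their choice as regions without overlap of the lines, so it is no measure of stability. The counts of list regions under other ranks were added after seeing the data. No paired analysis was possible because the KO and MUT lines share no replicate number in the labels and the results come from no test. Depth is unknown, so a missing peak is not a missing mark.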
